A study of Drosophila melanogaster with 2 samples.

Results

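The genes described here are the Drosophila GATA factor genes srp, pnr, GATAe, GATAd and grn, together with ush, which encodes a partner of GATA proteins. The data were lists of chromatin immunoprecipitation peaks for the protein encoded by CG10959. The embryos came from the transgenic strain CG10959-GFP, in which CG10959 is fused to eGFP, and were collected whole at 0 to 8 h. Chromatin was sheared to 200 to 800 bp and precipitated with an antibody against GFP, in 1 group of 2 biological replicates. There was no second condition, so no difference between conditions was tested. Whole embryos mix all cell types and an 8 h span of development, so a peak does not say in which cells or at which hour the protein was present. The number of reads behind each peak is unknown, and the control library was not analysed here.

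The 6 genes were selected on the peaks of this same experiment, by looking for summits inside each gene or nearest to one of its transcription start sites. The list used for this was the one that pools both replicates and keeps peaks past a threshold of irreproducible discovery rate (IDR), called the main list below. By that rule the 6 genes held 11 of the 3417 main-list peaks on the chromosome arms. Of the 6 genes, 3 had a peak (ush 7, grn 3 and srp 1) and 3 had none (pnr, GATAe and GATAd). Among 13945 protein-coding genes on the arms, 2401 or 17.2% had a main-list peak by the same rule (95% Wilson interval 16.6 to 17.9%, which covers counting error only). All 6 genes are at least 4998 bp long, which places them in the longest 25% of protein-coding genes, and 35.2% of those long genes (1228 of 3487) had a peak. Because the genes were chosen from their peaks, these shares give the background only, and nothing is read from the difference.

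GATA factors are zinc finger transcription factors named after the short DNA word that they bind. ush encodes a protein of the Friend of GATA (FOG) family, which binds GATA factors and modulates their activity. In the fly embryo srp is known for its role in blood cells, fat body and endoderm, GATAe for the endoderm and midgut, and pnr for the dorsal ectoderm, heart and, later, the notum. grn acts in tracheal and nervous tissue, and ush belongs to the genes needed to keep the amnioserosa and complete germ band retraction.

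The peak lists are on the dm6 assembly, and gene models are those of Ensembl release 115. Signal and score are given for a peak. Signal is the value deposited under that name for a peak, in the authors' units. What it measures is not stated in the sources used here, and values can be set side by side only within a list. Score runs up to 1000 and is a rescaled IDR that rises as the IDR falls. The lowest score in the main list was 830, which corresponds to an IDR of 0.01. A longer ranked list, also pooled over the replicates, holds 144499 peaks on the arms, of which 2.36% are in the main list, and its median signal is 27.0. The 6 genes held 206 ranked peaks, of which 11, or 5.34%, are in the main list.

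The cofactor gene ush had the most peaks of the 6. It lies at chr2L:476220-540560 on the plus strand (FBgn0003963) and has 4 annotated start sites, at 476220, 490835, 523466 and 523736. Its 7 main-list summits were spread over 37090 bp and all lay upstream of the nearest ush start site. By count, 18 protein-coding genes had at least as many main-list peaks as ush, itself included, and 12 had more. The gene is long (64341 bp): among the 198 protein-coding genes at least as long, ush included, the median was 1.00 main-list peaks and 11 had 7 or more.

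The strongest main-list peaks of ush lay in an intron just before the internal start site at 523466. The summit at 522107, which is 1359 bp upstream of that start site, had a signal of 339 and rank 338 in the main list. The summit at 520844, which is 2622 bp upstream, had a signal of 325 and rank 366. A peak with its summit at 522969, 497 bp upstream, was the one member peak classed as a promoter peak (within 500 bp of a start site), with a signal of 133. In all of these the score was 1000, and the peak was present in the thresholded list of each replicate. The short transcript that starts at 523466 thus had 4 main-list peaks in the 8 kb before its start, the farthest being the summit at 516163 with a signal of 93.4. None lay in the 17095 bp from that start site to the end of the gene, where the ranked list held 24 peaks with a highest signal of 62.7 and a highest score of 510. With 2.36% of the ranked peaks on the arms in the main list, nothing is read from that absence.

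The sequence around these summits is shown because both strongest peaks hold a GATA word close to the summit. Each stretch is the summit base with 50 bp on each side, on the dm6 plus strand, read 5′ to 3′ from the RefSeq copy of the assembly. Capitals mark the GATA factor words defined further on.
ush, 2622 bp upstream of the internal start site, chr2L:520794-520894: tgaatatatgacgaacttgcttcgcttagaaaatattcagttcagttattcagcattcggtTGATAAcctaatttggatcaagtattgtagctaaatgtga
ush, 1359 bp upstream of the internal start site, chr2L:522057-522157: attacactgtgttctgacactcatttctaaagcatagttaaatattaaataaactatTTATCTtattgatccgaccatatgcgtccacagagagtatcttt

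Farther upstream, a pair of peaks of intermediate signal lay before the second ush start site. The start site at 490835 is shared by ush and the non-coding gene lncRNA:CR46258, so the nearest start site does not tell the 2 genes apart. Both summits lie inside ush and upstream of lncRNA:CR46258, which begins at that site. The summit at 490233, in a 5′ UTR exon 602 bp upstream of that start site, had a signal of 182. The summit at 485879, in an intron 4956 bp upstream, had a signal of 178. Both had a score of 1000 and were in both replicates' thresholded lists, and in both the signal was lower in replicate 1 (78.9 and 66.2) than in replicate 2 (112 and 113). Those replicate values come from separate lists, so whether binding differed cannot be told from them.

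The weakest ush peaks lay in the middle of the gene. The summit at 510653 had a signal of 90.1 and a score of 985, was in the thresholded list of replicate 2 but not of replicate 1, and lies nearer to lncRNA:CR46259 (8417 bp) than to a ush start site (12813 bp). The summit at 516163, with a score of 925, was in neither replicate's thresholded list. The distal start site of ush at 476220 was the nearest ush start site of no main-list peak.

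The strongest signal within ush was in peaks that the main list lacks. The ranked list holds a peak at chr2L:480923-481253, summit 481088, with a signal of 1737 and a score of 1000, in an intron 4868 bp downstream of the distal start site. This was the peak ranked 5 by signal on the arms. A neighbour at chr2L:479976-480175, summit 480088, had a signal of 366 and a score of 1000. Both were strong in each replicate's ranked list, at 838 and 914 for the first and 206 and 162 for the second, with scores of 1000, yet neither is in any thresholded list. On the arms 84 ranked peaks with a score of 830 or more are missing from the main list in this way, and the peak of signal 1737 was the strongest of them. A region file is named among the sources of the thresholded lists and was not used here, so whether it removed these peaks was not tested.

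Both summits lie inside ush, but the nearest start site is that of cbt, which encodes a zinc finger transcription factor and is nested at the 5′ end of ush on the opposite strand. The distance was 1400 bp for the stronger and 400 bp for the weaker summit. The start of cbt had no main-list peak, so with the main list alone neither gene has a peak there. The same window around the stronger summit, which holds no GATA factor word, was as follows.
ush, absent from the main list, chr2L:481038-481138: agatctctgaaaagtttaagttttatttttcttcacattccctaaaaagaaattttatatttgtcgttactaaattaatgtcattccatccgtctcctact

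**Figure D1:**
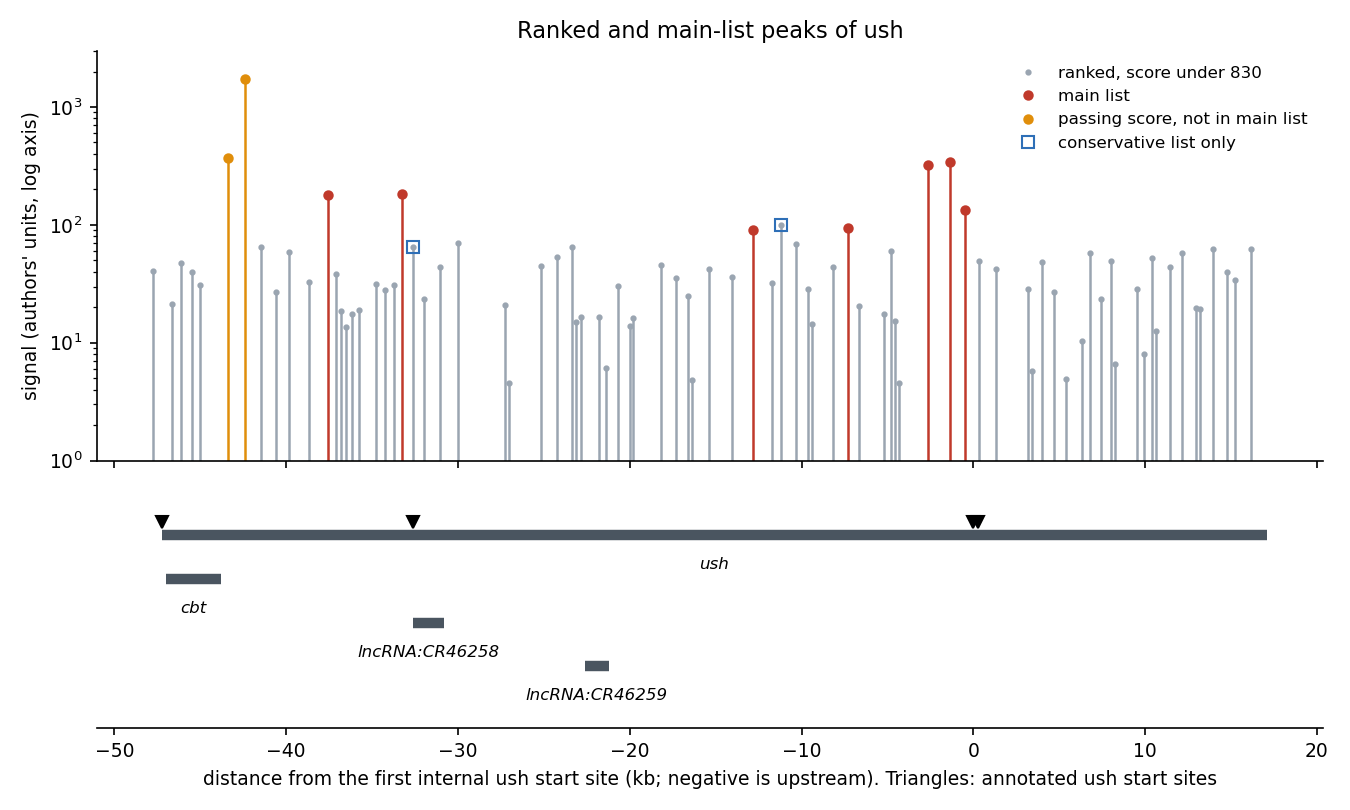
Signal of the 83 ranked peaks of ush (authors' units, log axis) against distance from the internal start site at 523466 in kb, with the gene and its overlapping genes drawn to scale beneath. Red stems are the 7 main-list peaks, orange stems the 2 peaks that score 1000 but are absent from the main list (366 and 1737), and blue squares the 2 peaks in the conservative list only. No red stem lies to the right of 0.

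The peaks just outside the threshold at ush were those at 482000 (score 759, signal 64.8) and 490873 (score 725, signal 65.5), against the lowest scores inside it of 925 and 985. The second of these lies 38 bp downstream of the shared start site. A second thresholded list of the authors, the conservative list, carries its own scores. It holds all 11 member peaks and also takes this one with a score of 836, together with a ush intron peak at 512271 (signal 99.2, conservative score 986, main-ranking score 562). By the conservative list ush had 9 peaks.

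Of the 5 GATA factor genes, grn and srp had main-list peaks. grn (FBgn0001138) lies apart from the others on 3R, at chr3R:8147368-8181444 on the minus strand, with a single start site at 8181444. All 3 of its main-list peaks were in introns downstream of that start site. The summit at 8180614, 830 bp into the gene, had a signal of 104 and was in the thresholded list of replicate 2 but not of replicate 1. The summit at 8171691, 9753 bp into the gene, had a signal of 124 and was in both replicates' lists.

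The remaining grn peak, with its summit at 8171923, cannot be counted as a separate site from the lists. Its summit is 232 bp from the previous one, the spans overlap by 128 bp, and both overlap the same single peak in each replicate. Its signal was 14.2 with a score of 1000. The main list has 95 peaks with a signal under 20, and 94 of them overlap another main-list peak. Counted once, the overlapping pair leaves grn with 2 peaks and the 6 genes with 10. A grn peak that only the conservative list has, with its summit at 8180823 and a signal of 6.42, likewise overlaps the peak at 8180614. The next grn peak down in score, 6372 bp upstream of the start site, had a score of 343 and a signal of 85.4.

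srp, GATAe and pnr are neighbours on 3R and read in the same direction. srp (FBgn0003507) lies at chr3R:15986152-16004085, GATAe (FBgn0038391) at chr3R:16009105-16019133 and pnr (FBgn0003117) at chr3R:16026079-16041796. From the start of srp to the end of pnr, a span of 55645 bp, the main list had 0 peaks and the ranked list 71, with a median signal of 31.0. Only 2.36% of the ranked peaks on the arms are in the main list, so nothing is read from the 0. The highest signal there was 76.9, in a pnr intron at 16036631 (score 583), and the highest score was 728, in an intergenic peak at 16004187 just past the end of srp (signal 60.5). The nearest start site of the peak with the highest score is that of lncRNA:CR42839, so it counts for none of the 3 genes.

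The single main-list peak of srp lay outside the gene, with its summit at 15984644, 1508 bp upstream of the first start site and in the interval between Hel89B and srp. It had a signal of 99.0 and a score of 1000 in the main list and 857 in the conservative list. It was in neither replicate's thresholded list: the ranked signal was 73.2 with a score of 390 in replicate 1 and 36.2 with a score of 617 in replicate 2. Within srp the best scores were 588, shared by 2 overlapping peaks in a coding exon with signals of 73.3 and 14.4, and 574 in an intron (signal 74.1). A ranked peak 248 bp upstream of the first srp start site had a score of 545 and a signal of 66.8.

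The summits of the srp peak and of the grn peak nearest to its start site also lie close to GATA factor words, in capitals below. The main-list stretches printed are all ones that hold a word. No such word lies within 50 bp of the strongest grn summit, at 8171691. The same holds for the ush summits at 485879, 490233, 516163 and 522969. The stretches are again centred on the summit, on the dm6 plus strand from RefSeq, and grn itself is on the minus strand.
srp, 1508 bp upstream of the first start site, chr3R:15984594-15984694: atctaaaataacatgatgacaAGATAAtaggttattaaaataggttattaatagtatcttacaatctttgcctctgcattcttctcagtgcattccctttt
grn, 830 bp downstream of the start site, chr3R:8180564-8180664: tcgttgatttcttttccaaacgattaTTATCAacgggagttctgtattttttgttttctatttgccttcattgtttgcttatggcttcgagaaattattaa

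**Figure D2:**
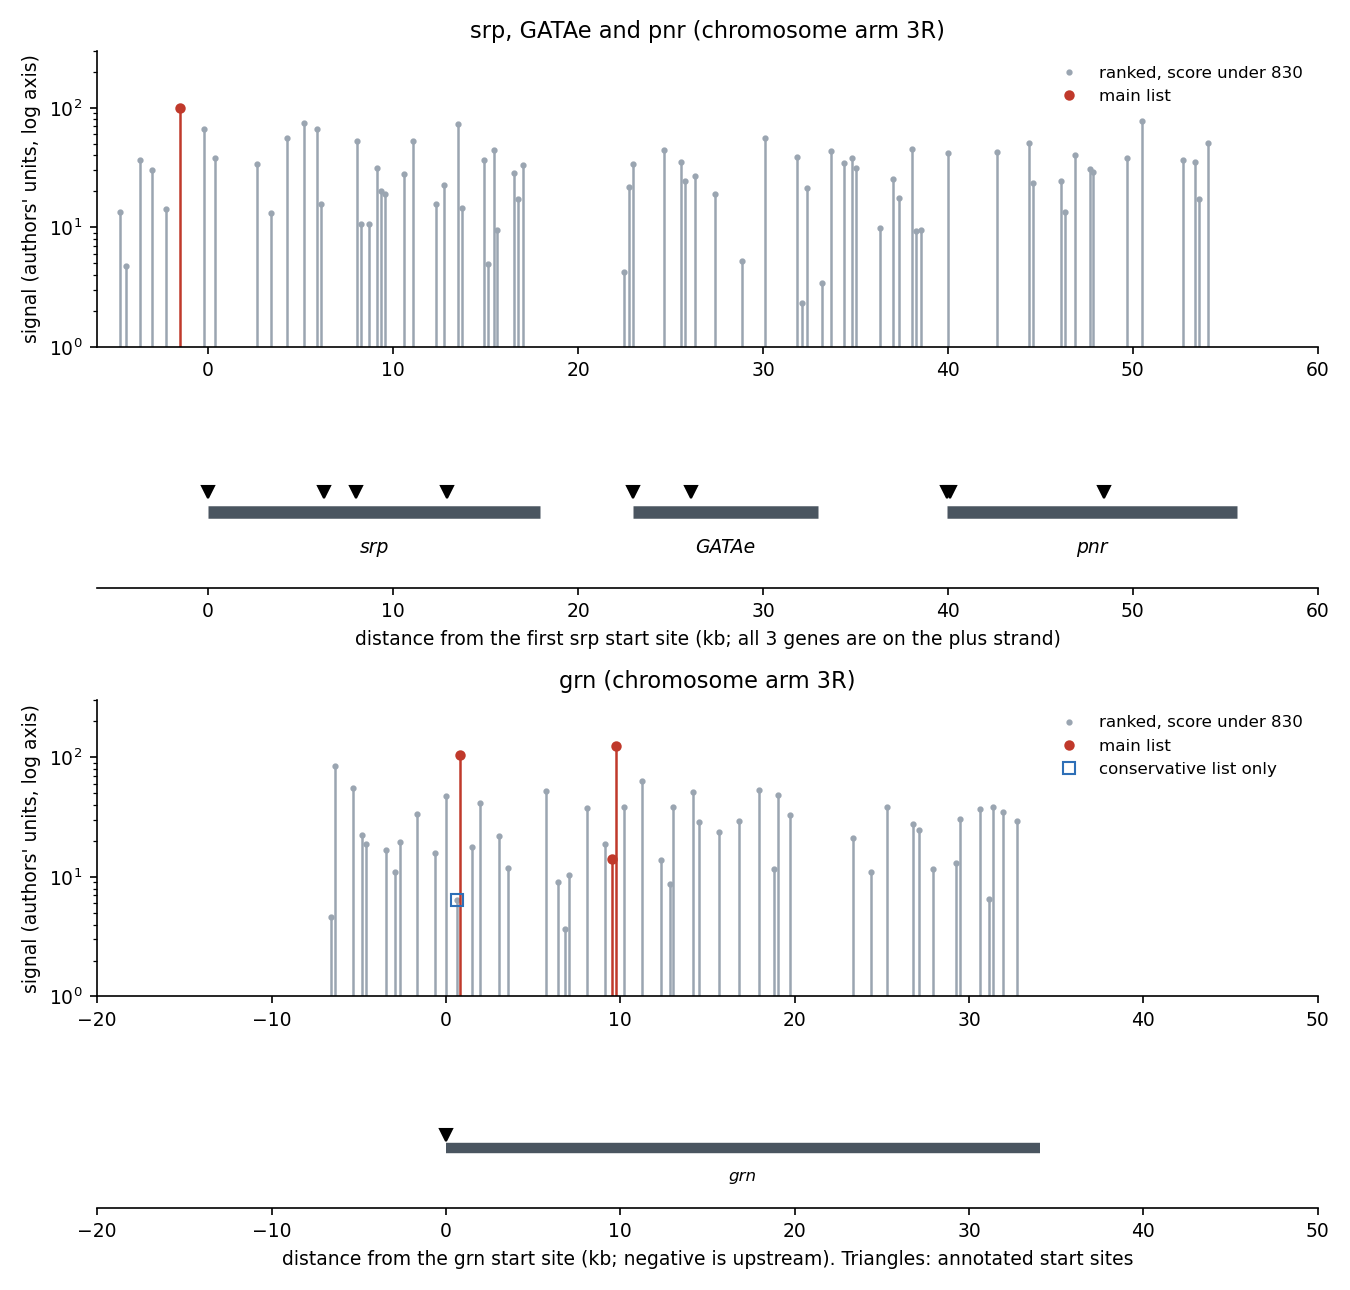
Signal of the ranked peaks (authors' units, log axis) of srp, GATAe and pnr (top) and of grn (bottom) against distance from the srp and grn start sites in kb, with genes to scale and triangles at start sites. Red stems are main-list peaks: 1 upstream of srp, none from srp to the end of pnr, and 3 in grn, of which the low one (14.2) overlaps its neighbour.

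pnr and GATAe had ranked peaks only. The 26 ranked peaks of pnr had signals of 3.43 to 76.9 (median 32.9), and the strongest of them, in the intron, had ranked signals of 47.3 in replicate 1 and 32.5 in replicate 2. The 13 ranked peaks of GATAe had signals of 2.31 to 55.7 (median 24.3), and the best score was 176. A ranked peak lies 19 bp downstream of the first GATAe start site, with a signal of 33.6 and a score of 108. Ranked peaks with a score under 830 had a median signal of 30.5 in ush (74 peaks), 28.3 in srp (32 peaks) and 24.3 in grn (48 peaks), against 26.5 for the 140998 such peaks on the arms.

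GATAd (FBgn0032223, chr2L:10333734-10339185, plus strand), the remaining GATA factor gene, had no row in any list. It lies in a 41431 bp stretch of 2L without a single pooled ranked peak, which wholly contains 12 protein-coding genes, among them its neighbours Cox10 and SamDC. A like stretch around GATAd was empty in the ranked lists of replicate 1 (40644 bp) and replicate 2 (38972 bp). On the arms 76 such stretches were at least as long, and 1153 protein-coding genes had no ranked peak by the rule. The lists thus give no value for GATAd, neither a low nor a high one.

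**Figure D3:**
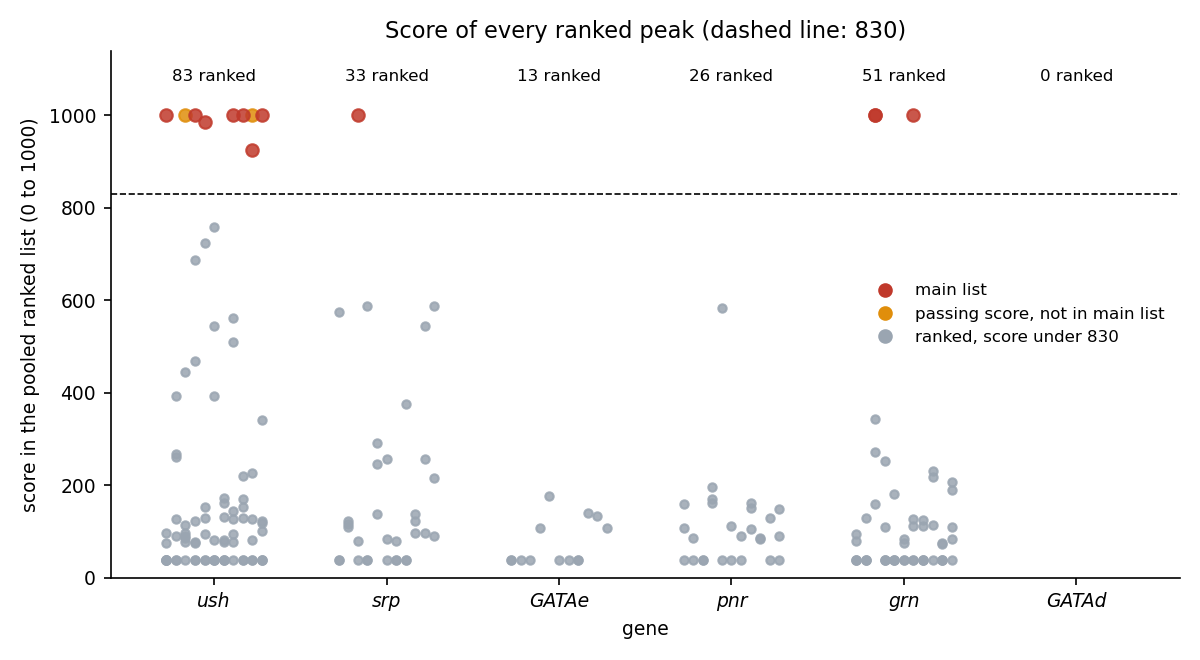
Score in the pooled ranked list of every ranked peak of the 6 genes (points spread sideways for legibility), with the dashed line at the threshold of 830. All red main-list points belong to ush, srp and grn, the best pnr peak stands at 583 and the best GATAe peak at 176, and GATAd has no point.

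The 11 member peaks were ordinary in signal. Their signals were between 14.2 and 339 with a median of 124, against a median of 125 in the whole main list, and 5 of the 11 were above that median. They differed in place from the bulk of the list as a description: 8 lay in introns and 1 at a promoter, where the whole main list had 35.4% of its peaks in introns and 39.1% at promoters. Of the 6 genes, 1 had a promoter peak, against 11.3% of all protein-coding genes (1569). The place of peaks in other long genes was not compared, so the share in introns is not called particular to these genes.

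In the separate lists of the replicates, 7 of the 11 member peaks overlapped a thresholded peak of both replicates (ush 5, grn 2), 2 of replicate 2 alone, and 2 of neither. Both of these grn peaks overlap one and the same peak in each replicate, so the 7 rest on 6 separate replicate peaks. In the whole main list the share in both was 46.8% (1600 peaks). In the longer ranked lists all 11 overlapped a peak of both replicates, as did 98.5% of the whole main list, so that count tells nothing about these genes. The distance between pooled and replicate summits was 5 to 168 bp with a median of 26.0 bp over 22 comparisons. The highest values, 166 and 168 bp, belong to the low grn peak at 8171923, matched to the same replicate peaks as its neighbour.

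**Figure D4:**
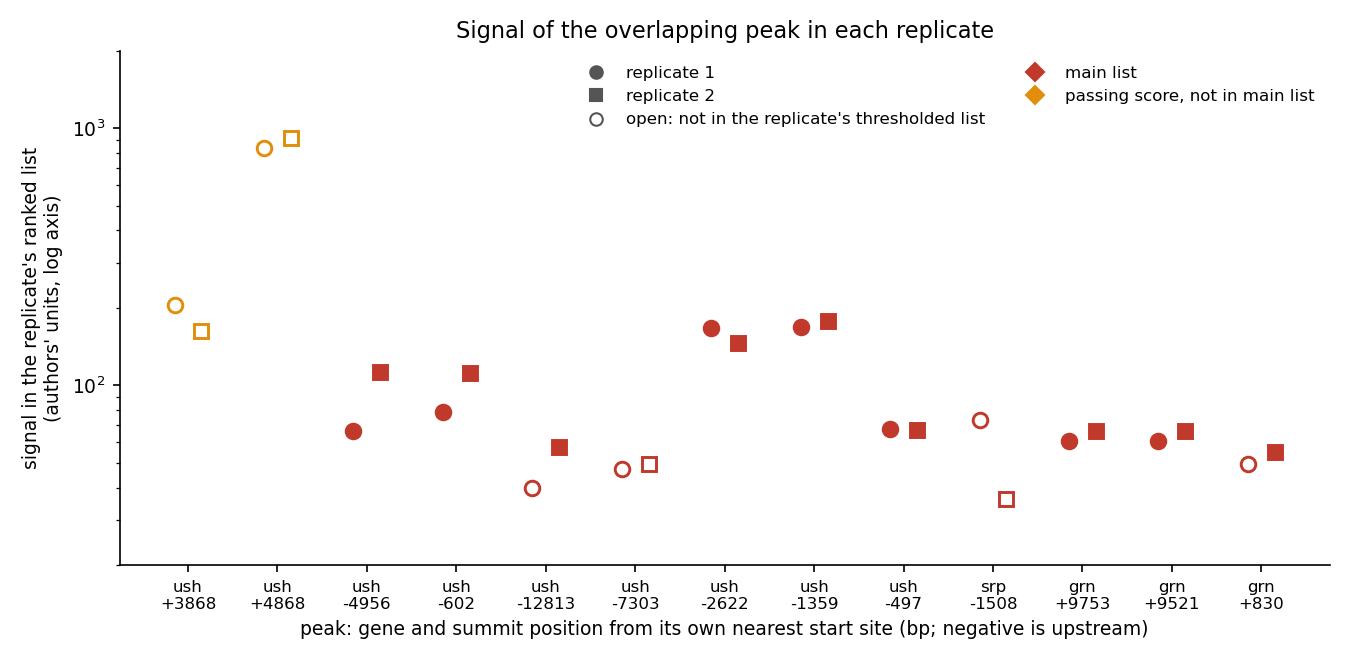
Ranked-list signal (authors' units, log axis) of the overlapping peak in replicate 1 (circles) and replicate 2 (squares) for the 11 main-list peaks (red) and the 2 ush peaks absent from the main list (orange). Open symbols mark peaks absent from that replicate's thresholded list, and the 2 orange peaks are open in both replicates although they include the highest values, 838 and 914.

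The words searched for GATA factors were AGATAA, its variant AGATAG, and the forms that begin with T, namely TGATAA, or with a last G the word TGATAG, on either strand and within 50 bp of a summit. At least 1 of them was present in 6 of the 11 member peaks (54.5%): 3 in ush, 2 in grn and 1 in srp. The share was 19.5% over all main-list peaks on the arms and 15.2% in windows of the same size 300 bp to either side of their summits. One of the 6 is the low grn peak of signal 14.2. Flanking windows of the member peaks held a word in 8 of 22 cases, so such words also occurred beside these peaks. The summits of the overlapping grn pair are 232 bp apart, so a flank of each falls within the other peak. The word at the low grn peak is therefore counted on both sides. Summits and flanks are thus not fully separate sets, and nothing is read from their difference. The core GATA alone, which every longer word contains, was in 7 of 11 member windows (63.6%) and in 51.2% of main-list windows. Flanking windows held the core in 14 of 22 cases for the member peaks and in 42.2% for the main list. The core was thus no more frequent at the member summits than in these flanks, which again include the grn windows that fall within member peaks. A match is a string of letters and not a bound site, and the peaks are those of CG10959 rather than of a GATA factor.

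With 11 windows, counts for the words of other factors are small. The GAGA factor word GAGAG was in 2 of the 11 member windows (18.2%), against 10.6% of the main list. The words TATCGATA of the DNA replication-related element, CAGGTAG of Zelda and the E-box CACGTG were in 0 member windows, against 0.907%, 0.498% and 1.05% of the main list, shares too low for 11 windows to show a difference. CGATA, the core bound by BEAF-32 and contained in the replication-related word, was in 0 member windows, against 12.6% of the main list. These counts depend on the window. Over the whole peak, GATA factor words were in 10 of 11 member peaks (47.1% of the main list), the core GATA in 11 (84.8%), GAGAG in 7 (38.5%), CGATA in 6 (34.4%) and CAGGTAG in 2 (1.90%). The member windows had a median GC content of 32.7% (27.7 to 51.5%), against 34.7% in the main list.

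**Figure D5:**
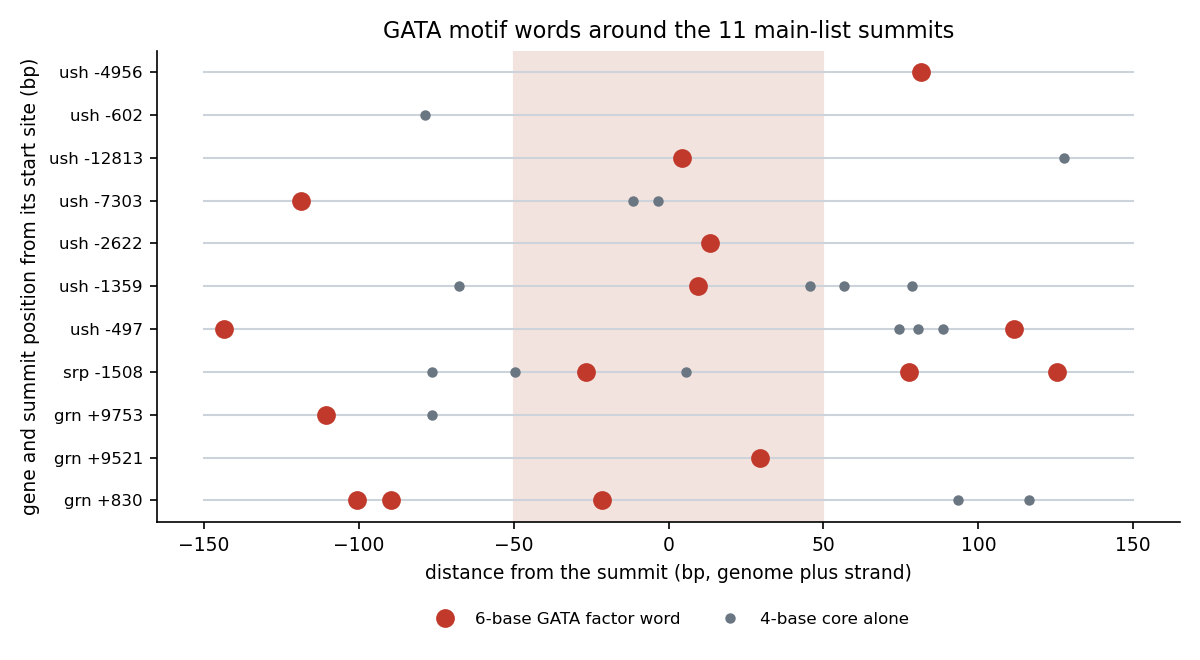
Position of the 6-base GATA factor words (large red points) and of the 4-base core alone (small grey points) relative to the 11 main-list summits, in bp on the genome plus strand, with the 50 bp before and after the summit shaded. A red point falls in the shaded band in 6 of the 11 rows: 3 of ush, 1 of srp and 2 of grn.

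The other genes of the GATA and FOG pathways were taken from 5 lists of 71 genes beside the members, grouped by the tissue or the partners they are known for. Of the 71 genes, 32 had a main-list peak (45.1%), against the 17.2% of all protein-coding genes. The lists are rich in long genes: 45 of the 71 are among the longest 25% of genes, and 25 of those 45 (55.6%) had a peak, against 35.2% of all genes that long. The lists were put together by hand with earlier results of these data known, so these counts are a description and no test was made.

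Among genes of the U-shaped group and the amnioserosa, where ush itself acts, 10 of 17 had a peak. Peaks are credited to a gene that contains them, even where another start site is nearer. The strongest was in an intron of rib, which encodes a nuclear BTB-domain protein needed for the trachea, with a signal of 370. Doc2, a T-box factor of the amnioserosa and heart, had 290 at a peak 4518 bp upstream, and the receptor gene Egfr had 208 in an intron, nearest to the start site of CG30283. Among blood cell genes, 9 of 18 had a peak, led by the transcription factor gene zfh1 (571), the receptor gene N (374) and the PDGF- and VEGF-related ligand gene Pvf3 (341), all in introns, of which the one in N is nearest to the start site of CG18508. Among endoderm and gut genes 4 of 8 had a peak, led by bowl (544, at its promoter), cad (117, nearest to the start site of Pomp) and lab (111), all transcription factor genes.

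Among heart and notum targets and partners of pnr, 10 of 22 had a peak. The highest was within osa (515), a subunit gene of the Brahma chromatin remodelling complex. It lies in a non-coding exon 13916 bp from an osa start site, and the nearest start site is that of lncRNA:CR46035. It was followed by the promoter of the heart gene tin (360, 171 bp upstream of a start site) and by Doc2. Among cofactors of GATA and FOG proteins 3 of 12 had a peak. All 3 were among the 8 genes of this list in the longest 25%. That share, 37.5%, is near the 35.2% of all genes that long, whereas the other lists had 53.8 to 70.0% by the same count. simj, a subunit gene of the NuRD complex, had 7 peaks, as many as ush, with a highest signal of 278 at a peak nearest to the start site of CG11811. Mi-2, the gene of the NuRD ATPase, had 1 (153, nearest to asRNA:CR43889), and Bx, a LIM-only gene whose product binds partners of Pnr, had 4, with a highest signal of 138.

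Adjacent coding genes outside the 6 shared none of the member peaks. Of the overlapping non-coding genes, lncRNA:CR46258 was also credited with 2 main-list peaks and lncRNA:CR46259 with 1, all of them within ush. MED15, lwr, cbt, Hel89B, Jhbp4, Arl8, CheA84a, Cox10 and SamDC, the coding genes next to or nested in the 6, had 0 main-list peaks by the rule. Beside the 2 peaks near cbt, another such peak, scored 830 or more and absent from the main list, was assigned to Hel89B, with a signal of 117.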

How the data were processed

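Chromatin immunoprecipitation was done on 2 biological replicates. The authors deposited peak lists with signal values, scores, −log10 IDR values and summit offsets (other values) per peak, on dm6 per the labels, with an aligner and a peak caller not given in the sources used here. Signal and score are as deposited; the score was checked to be a fixed multiple of the negative log2 IDR within 1.0. The −log10 values were read only to compute that. The deposited pooled ranked lists also carry 16 per-replicate columns, which were not used.

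Summits were assigned with Python 3.11.15 and numpy 2.4.6 to each gene of Ensembl release 115 that contains them or has the nearest start site. A promoter is within 500 bp of a start site. Peaks shared between lists overlap by at least 1 bp. Motif windows are 50 bp on each side, read from the RefSeq assembly. Assignment was tested on simulated positions. Genes named are the members, their neighbours and the 3 strongest of each gene list; other names were chosen after their values were seen. Nothing was tested across conditions, since there is 1 group. The members, the gene lists and the words searched were chosen with earlier results of these data known. Alternatives were the conservative and replicate lists, summits inside genes only, other window and promoter sizes, and, chosen after seeing the data, overlapping peaks counted once.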

Additional observations from a re-analysis of the deposited data

Results flagged for a closer look

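A peak in ush with its summit 4868 bp downstream of the distal start site had a signal of 1737 and a score of 1000 in the pooled ranked list, and is in none of the thresholded lists. A second one, 3868 bp downstream, had a signal of 366 and a score of 1000. Both were singled out because they are signal in data outside the main list, and both are nearest to the start site of cbt. Neither enters the count of 7 ush peaks. What removed them from the thresholded lists was not tested.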

How the results depend on the processing

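Of 85 alternative values, 66 were within 1.5 times the reported count (the share of genes, within its Wilson interval) and 19 were not. Of the 66, 32 are a count of 0 in both and carry no weight. Counts for ush were 5 to 9 and for the 6 genes 6 to 14 over all alternatives. With the list of either replicate alone, ush had 5 to 6 peaks, srp 0, grn 1 to 2 and the 6 genes 6 to 8. The srp count was also 0 when only summits inside genes were taken. Overlap with both replicates held for 11 peaks, instead of 7, in the replicates' ranked lists, as for 98.5% of the main list. GATA factor words were in 10 member peaks, instead of 6, when the whole peak was searched, where 47.1% of the main list holds one. Within 100 bp they were in 7, against 33.7%, the core GATA in 11 (73.4%), GAGAG in 4 (24.5%) and CGATA in 2 (24.6%). The number of the 6 genes with a promoter peak was 0 at 200 bp and 2 at 1000 bp, instead of 1. The share of protein-coding genes with a peak was 15.9% in the conservative list and 11.0 to 12.7% in the replicates' lists. The cause of these shifts was not tested, beyond the stricter or wider definition that each alternative sets. GATAe and pnr had 0 peaks under each of the alternatives run for the gene counts, whereas GATAd has no ranked row, so no alternative bears on it. No paired analysis was possible because there is 1 group. With 2 replicates and no read counts in the lists, depth is unknown and no error is given for a signal.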
